A study of Homo sapiens with 18 samples.

Results

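Anti-ARID1A CUT&Tag peaks were compared between YTHDF1-knockout and wild-type A549 cells, through the peak lists of 4 libraries. The peaks of 2 YTHDF1-KO lists and 2 WT lists on chromosomes 1 to 22 and X were merged wherever they overlapped, and a list was taken to hold a merged region when any of its peaks touched it by at least 1 bp. This gave 141178 regions; merging the peaks of all 12 lists of the series in the same way gave 194611, which are not a superset, since added peaks also join regions. Of these, 37331 (26.4%) were held by all 4 lists and are called kept, 4730 (3.35%) were held by both YTHDF1-KO lists and neither WT list and are called KO-only, and 5292 (3.75%) were held by both WT lists and neither YTHDF1-KO list and are called WT-only. The other 93825 regions had mixed patterns.

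A549 is a human lung adenocarcinoma line. CUT&Tag uses an antibody to tether a transposase to chromatin, so that DNA near the bound protein is cut out and sequenced. The YTHDF1-KO cells carry a knockout of YTHDF1 and the WT cells are the unedited line. No further treatment is named for either. The labels do not say whether the knockout is 1 clone or whether the replicates came from separate cultures. The spread between the lists of a group may therefore be technical. The series also holds cells with ARID1A knockdown (siARID1A) and anti-YTHDF1 libraries of all 3 kinds of cell, which are used below as lists outside the rule. By label, YTHDF1-KO cells lack the target of the anti-YTHDF1 antibody, so its peaks there cannot be taken as YTHDF1 signal. The IgG controls were not analysed here, so whether a given peak marks bound ARID1A was not tested.

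ARID1A is the AT-rich interaction subunit that defines the canonical BAF complex, a SWI/SNF remodeller that slides or evicts nucleosomes and keeps enhancers and many promoters accessible. It is often mutated in carcinomas. YTHDF1 is best known as a cytoplasmic reader of N6-methyladenosine in mRNA, where it is linked to translation.

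Gene starts with a peak in 1 condition only were few. Promoters of 3 such starts of each class outside chromosomes 2, 8, 9 and 17, and that of SPARC, the only EMT gene of that kind, are shown to let these starts be read as sequence. The 3 are those with the highest lower percentile among starts that have a gene symbol (not a LOC number) and whose merged region has the same class as the start; stronger 1-condition starts that lie within a kept region are described further on. Each runs 5′ to 3′ on the gene's strand from 250 bases before to 50 bases after the RefSeq start (GRCh38.p14), and capitals mark the motifs that were searched, which here are CCAAT on either strand or, in SPARC, the TEAD motif GGAATG on the reverse strand. The KO-only starts are EXOC3 at chr5:442926-443225 on the plus strand, TMC4 at chr19:54173111-54173410 on the minus strand, ZNF608 at chr5:124748775-124749074 on the minus strand and SPARC at chr5:151686866-151687165 on the minus strand. The WT-only starts are ZNF823 at chr19:11738897-11739196 on the minus strand, BCO1 at chr16:81238439-81238738 on the plus strand and SV2B at chr15:91099338-91099637 on the plus strand.
EXOC3: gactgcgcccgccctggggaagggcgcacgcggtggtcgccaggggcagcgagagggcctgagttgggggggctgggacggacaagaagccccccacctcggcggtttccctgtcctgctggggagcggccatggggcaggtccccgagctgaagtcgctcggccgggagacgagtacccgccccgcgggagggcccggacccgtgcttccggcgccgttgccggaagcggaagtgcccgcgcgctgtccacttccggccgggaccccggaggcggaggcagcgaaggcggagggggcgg
TMC4: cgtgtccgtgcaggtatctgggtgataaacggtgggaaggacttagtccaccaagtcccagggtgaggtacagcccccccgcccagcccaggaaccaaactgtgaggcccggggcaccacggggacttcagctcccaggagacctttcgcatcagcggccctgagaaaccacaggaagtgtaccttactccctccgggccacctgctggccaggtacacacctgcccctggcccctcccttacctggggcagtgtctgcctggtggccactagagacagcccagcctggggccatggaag
ZNF608: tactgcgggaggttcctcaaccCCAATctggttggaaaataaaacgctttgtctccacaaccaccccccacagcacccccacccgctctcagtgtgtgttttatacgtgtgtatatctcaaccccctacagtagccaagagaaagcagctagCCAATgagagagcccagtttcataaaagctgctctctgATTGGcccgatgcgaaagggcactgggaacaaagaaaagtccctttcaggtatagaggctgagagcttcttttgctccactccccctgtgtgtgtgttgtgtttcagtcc
SPARC: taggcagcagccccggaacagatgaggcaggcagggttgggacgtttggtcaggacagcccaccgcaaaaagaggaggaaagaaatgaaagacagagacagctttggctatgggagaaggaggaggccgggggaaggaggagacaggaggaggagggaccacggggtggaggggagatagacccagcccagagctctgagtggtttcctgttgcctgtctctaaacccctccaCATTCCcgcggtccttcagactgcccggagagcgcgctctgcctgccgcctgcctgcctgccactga
ZNF823: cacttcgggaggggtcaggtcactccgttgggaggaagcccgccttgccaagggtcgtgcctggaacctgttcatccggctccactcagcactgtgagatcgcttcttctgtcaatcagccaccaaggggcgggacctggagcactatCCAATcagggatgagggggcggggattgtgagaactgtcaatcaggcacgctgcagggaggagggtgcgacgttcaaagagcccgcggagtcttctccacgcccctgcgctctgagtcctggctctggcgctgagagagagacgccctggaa
BCO1: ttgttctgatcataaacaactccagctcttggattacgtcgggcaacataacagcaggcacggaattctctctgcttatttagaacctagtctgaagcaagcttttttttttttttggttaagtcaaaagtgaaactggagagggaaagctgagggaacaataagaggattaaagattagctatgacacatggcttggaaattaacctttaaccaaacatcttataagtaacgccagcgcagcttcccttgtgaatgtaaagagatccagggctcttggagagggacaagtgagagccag
SV2B: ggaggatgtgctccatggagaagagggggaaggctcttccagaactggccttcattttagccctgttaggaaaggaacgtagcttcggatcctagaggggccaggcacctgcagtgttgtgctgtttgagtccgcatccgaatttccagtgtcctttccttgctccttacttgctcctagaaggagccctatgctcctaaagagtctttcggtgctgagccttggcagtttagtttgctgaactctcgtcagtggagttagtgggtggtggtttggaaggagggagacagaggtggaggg
The EXOC3 promoter, with 76.0% G+C and 36 CpG, was the richest of the 7, and the BCO1 promoter, with 41.7% G+C and 5 CpG, the poorest.

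The YTHDF1-KO lists overlapped the WT lists in peak number and covered length, but not in peak width or height. The YTHDF1-KO lists held 99861 and 106882 peaks, against 92343 and 100729 peaks in the WT lists. The means were 103372 ± 4965 and 96536 ± 5930 peaks (SD, n = 2 each), a ratio of 1.07 with a 2-sided exact permutation p of 0.67, where 0.33 is the smallest p that 2 lists against 2 allow. Without chromosomes 2, 9 and 17 the groups did not overlap, with 82119 and 87850 peaks in YTHDF1-KO lists and 73376 and 79825 in WT lists, a ratio of 1.11 (exact permutation p = 0.33). The peaks covered 241 and 234 Mb in YTHDF1-KO cells and 228 and 266 Mb in WT cells. Median peak width was 1650 and 1523 bp in YTHDF1-KO cells and 1701 and 1754 bp in WT cells, without overlap (exact permutation p = 0.33). The deposited signal moved in whole steps, and the median peak reached 6 steps in both YTHDF1-KO lists and 7 steps in both WT lists, so a typical peak rests on few overlapping fragments. Total read depth was not given in the sources used here. Mitochondrial DNA, which is outside every count that follows, took 22.6% and 23.0% of all listed signal in YTHDF1-KO cells, against 19.3% and 18.1% in WT cells.

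The A549 label was checked on gene starts. The start of KRT8, an epithelial keratin, was at the 99.5th and 99.7th percentile of its list's total signal in YTHDF1-KO cells and at the 99.7th and 99.9th in WT cells. NKX2-1, a lung epithelial factor, had a peak at its start in every list, at percentiles 69.7 and 70.9 in YTHDF1-KO cells and 85.3 and 49.4 in WT cells. PTPRC, the pan-leukocyte gene CD45, held none. Of 8 starts on the haematopoietic marker list, however, 4 were kept, 1 was mixed and 3 held no peak. Neuronal markers were not all free of peaks either, so a peak at a start did not mark lung epithelial genes alone. The start of NEUROD1, a neurogenic factor gene, held peaks in the WT lists alone, at 45.5 and 20.5, and the start of RBFOX3, the NeuN gene, held a peak in WT replicate 1 alone. The far end of RBFOX3 held peaks in every list, at 99.4 and 99.6 in YTHDF1-KO cells and 81.6 and 93.7 in WT cells. The starts of both genes that the labels name were kept. The YTHDF1 start was at percentiles 94.1 and 86.8 in YTHDF1-KO cells and 74.4 and 91.0 in WT cells, and the ARID1A start at 72.7 and 77.1 in YTHDF1-KO cells and 64.1 and 65.8 in WT cells. A peak at the YTHDF1 start says nothing on the knockout itself, which the peak lists cannot check.

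Kept regions carried most of the anti-ARID1A signal. They took 84.8% and 84.3% of the listed signal in YTHDF1-KO cells and 87.1% and 84.2% in WT cells, with 59.1% and 58.6% of the peaks in YTHDF1-KO cells and 63.4% and 55.0% in WT cells. KO-only regions took 1.80% and 1.76% of the signal of the YTHDF1-KO lists, and WT-only regions 2.15% and 1.98% of that of the WT lists. Both classes were narrow, with a median of 1898 bp for KO-only and 1945 bp for WT-only regions against 4320 bp for kept ones. KO-only regions covered 9.63 Mb in all, WT-only regions 11.2 Mb and kept regions 249 Mb. Width is partly tied to the rule, since a wider region has more room to be touched by a peak of every list. The shares of signal are partly tied to it too, since total signal grows with width.

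The percentile of each peak's total signal within its own list also differed between the classes. This is not a separate contrast, since total signal grows with width. It is also partly tied to the rule, since a weak peak is more easily absent from a list. Peaks in kept regions had median percentiles of 69.0 and 69.2 in YTHDF1-KO cells and 66.8 and 71.0 in WT cells. KO-only peaks had medians of 30.8 and 32.3, and WT-only peaks 30.8 and 33.5, close to those of mixed regions, which were 27.7 and 27.9 in YTHDF1-KO cells and 26.0 and 28.1 in WT cells. Among the strongest 25% of peaks of a list, 97.5% lay in kept regions in each YTHDF1-KO list, against 98.1% and 96.8% in the WT lists. Only 0.240% and 0.262% of these strong YTHDF1-KO peaks were KO-only, and only 0.312% and 0.417% of the strong WT peaks were WT-only. Among the weakest 25%, the KO-only shares were 7.69% and 6.82% and the WT-only shares 9.44% and 7.77%. Lists of the same condition also differed on weak peaks: of the weakest 25%, 36.6% and 35.6% of YTHDF1-KO peaks touched a peak of the other YTHDF1-KO list, and 47.4% and 32.4% of WT peaks one of the other WT list.

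**Figure D1:**
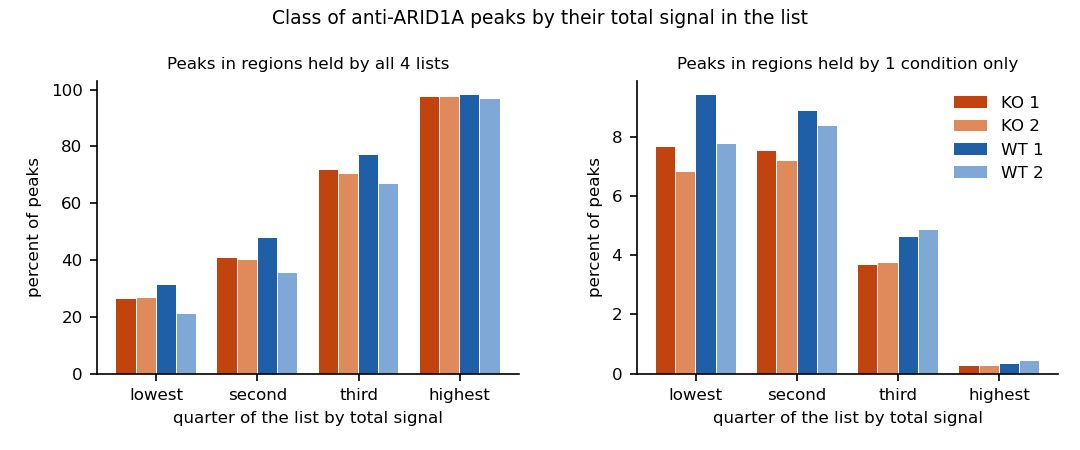
Percent of the peaks of each anti-ARID1A list (bars, 2 YTHDF1-KO and 2 WT lists) that lay in regions held by all 4 lists (left) and in regions held by that list's condition alone (right), by 25% steps of total signal from lowest to highest. Kept regions took 96.8% to 98.1% of the strongest peaks of the 4 lists and 20.9% to 31.3% of the weakest.

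Peaks were shared across conditions nearly as often as within them. Of the peaks of YTHDF1-KO replicates 1 and 2, 67.7% and 66.6% touched a peak of the other YTHDF1-KO list, and 63.4% to 70.3% touched a peak of a given WT list. Of the peaks of WT replicates 1 and 2, 65.5% to 70.1% touched a peak of a given YTHDF1-KO list, and 76.3% and 65.8% touched a peak of the other WT list. These ranges overlap.

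By chromosome, the 1-condition regions were uneven. On chromosome 2 there were 118 KO-only regions and 1036 WT-only regions, on chromosome 9 there were 123 and 438, and on chromosome 17 there were 492 KO-only and 140 WT-only regions. The share of listed signal moved the same way. Chromosome 2 took 4.39% and 4.46% in YTHDF1-KO cells, against 7.34% and 7.42% in WT cells. Chromosome 9 took 3.49% and 3.47% in YTHDF1-KO cells and 4.99% and 5.04% in WT cells. Chromosome 17 took 10.6% and 10.5% in YTHDF1-KO cells and 8.37% and 8.45% in WT cells. The groups did not overlap on any of these chromosomes (exact permutation p = 0.33, the smallest possible). Lack of overlap was common, however: the anti-ARID1A groups overlapped only on chromosomes 8, 10, 13, 21 and 22.

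The shifts followed long blocks. All 25 bins of 10 Mb on chromosome 2 were lower in YTHDF1-KO cells, by -1.05 to -0.51 on the log2 scale of signal share. On chromosome 9 the 7 bins from 70 Mb onward were lower, by -0.97 to -0.64, and held 39 KO-only and 380 WT-only regions, whereas the 6 bins with peaks before 70 Mb ranged from 0.01 to 0.58. On chromosome 17 the 5 bins from 40 Mb onward were higher, by 0.45 to 0.69, and held 363 KO-only and 40 WT-only regions, whereas the 4 bins before 40 Mb ranged from -0.01 to 0.13. The anti-YTHDF1 lists of the same 2 kinds of cell, which did not enter the rule, showed the blocks with the same sign. Their log2 share differences were -0.96 to -0.01 across chromosome 2, -1.01 to -0.29 on chromosome 9 from 70 Mb and 0.36 to 0.94 on chromosome 17 from 40 Mb. In the chromosome 2 bins from 50, 140 and 180 Mb (-0.01, -0.22 and -0.31) the YTHDF1-KO and WT anti-YTHDF1 lists overlapped. Over 290 bins with at least 20 kept regions, the log2 share differences of the anti-ARID1A and anti-YTHDF1 lists had Pearson's r of 0.74 and Spearman's rho of 0.53. Over the 243 such bins outside chromosomes 2, 9 and 17, r was 0.35 and rho 0.31. Both antibodies share the cells, the genome and the peak caller in each bin. DNA copy number of the cells was not measured here, and its part in these blocks was not tested.

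**Figure D2:**
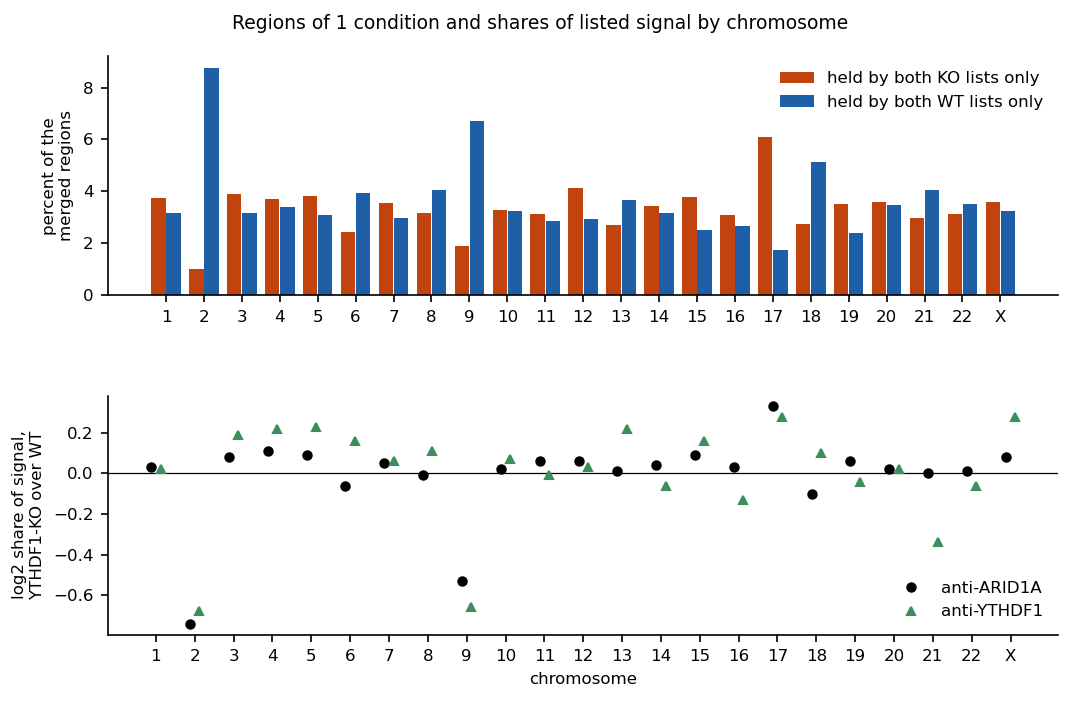
Top, percent of the merged regions of each chromosome held by both YTHDF1-KO lists only and by both WT lists only. Bottom, log2 of the mean share of listed signal in YTHDF1-KO over WT cells, for the anti-ARID1A and the anti-YTHDF1 lists (2 lists per group). Chromosomes 2 and 9 are lower and chromosome 17 higher with both antibodies.

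Without chromosomes 2, 9 and 17 the classes were nearly balanced. Of 114732 regions, 30512 (26.6%) were kept, 3997 (3.48%) were KO-only and 3678 (3.21%) were WT-only. Smaller blocks remained, in both directions. The bin of chromosome 19 from 20 to 30 Mb held 22 KO-only regions and 1 WT-only region and was 0.71 higher on the log2 scale in YTHDF1-KO cells, with 0.54 in the anti-YTHDF1 lists. The bin of chromosome 1 from 190 to 200 Mb held 14 KO-only and 3 WT-only regions, with log2 differences of 0.53 and 0.72. The bin of chromosome 19 from 50 to 60 Mb held 32 KO-only and 3 WT-only regions, with 0.29 in the anti-ARID1A lists and 0.04 in the anti-YTHDF1 lists. On the other side, the bin of chromosome 6 from 0 to 10 Mb held 7 KO-only and 22 WT-only regions, with -0.29 in the anti-ARID1A lists and -0.26 in the anti-YTHDF1 lists, and the bin of chromosome 8 from 20 to 30 Mb held 14 KO-only and 48 WT-only regions, with -0.10 and 0.03. These bins were chosen after their values were seen.

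Kept regions sat at genes more often than the other classes. Within 1000 bp of an annotated end of a protein-coding gene (either end) lay 34.1% of kept regions, 7.89% of KO-only regions, 5.57% of WT-only regions and 6.42% of mixed ones. Among regions of 1500 to 2500 bp, where the classes are alike in width, the shares were 26.3% for kept, 7.85% for KO-only, 5.69% for WT-only and 6.67% for mixed regions. Elsewhere inside genes lay 49.5% of KO-only and 47.6% of WT-only regions, and 42.7% and 46.8% lay between genes. The median distance to the nearest gene end was 11.2 kb for kept, 22.6 kb for KO-only and 26.8 kb for WT-only regions.

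**Figure D3:**
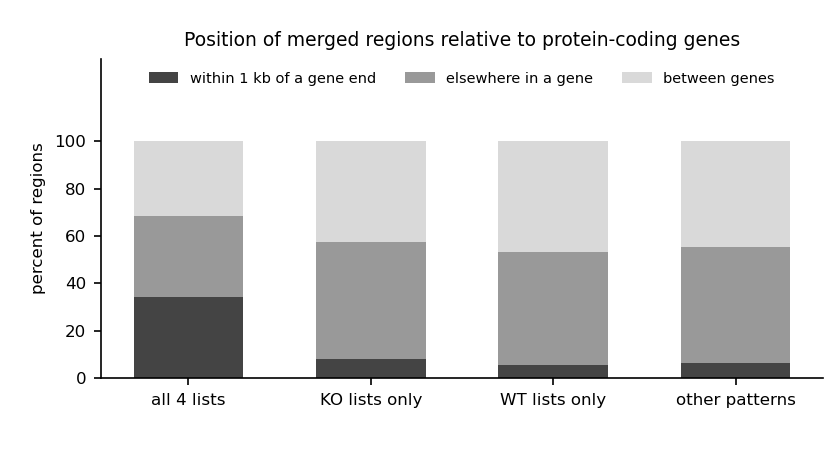
Stacked percent of merged regions that lay within 1000 bp of either annotated end of a protein-coding gene, elsewhere in a gene, or between genes, by class. The share near a gene end is 34.1% in kept regions and 7.89% and 5.57% in regions held by the YTHDF1-KO lists only and by the WT lists only.

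Most protein-coding starts in the promoter table, which holds none on chromosome 8, kept their peak. Of 15812 starts with a window of 1000 bp on either side, 9862 (62.4%) held a peak in all 4 lists, 174 (1.10%) were KO-only, 160 (1.01%) were WT-only and 3152 (19.9%) held none. Without chromosomes 2, 9 and 17, 163 (1.23%) of 13203 starts were KO-only and 115 (0.871%) WT-only. Of the 174 KO-only starts, 119 lay in a KO-only merged region and 28 lay within the span of a kept region. Of the 160 WT-only starts, 109 lay in a WT-only region and 21 within a kept one.

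The KO-only starts with the highest percentiles outside the 3 chromosomes lay within kept regions: SEMA3C, a semaphorin gene, was at 93.7 and 91.7, MYBPH, a myosin-binding protein gene, at 95.0 and 90.7, and BDNF at 90.0 and 91.8. Among starts whose merged region was KO-only too, an uncharacterised gene, LOC124900844, was at 85.8 and 69.8. EXOC3, a subunit of the exocyst that tethers secretory vesicles, was at 64.5 and 73.5. TMC4, a transmembrane channel-like protein, was at 69.9 and 63.0. ZNF608, a zinc-finger protein, was at 70.8 and 60.4. TRPC6, a calcium-permeable channel, was at 66.7 and 60.1. SPARC, a matrix glycoprotein of the EMT list, was at 51.6 and 52.0, so that its peaks were of middle rank. On the WT side an uncharacterised gene, LOC124903532, at 97.5 and 96.0, and MEI1, a meiosis gene, at 81.4 and 82.3, lay within kept regions. Among starts whose region was WT-only too, ZNF823, a zinc-finger gene, was at 71.6 and 79.0, BCO1, which cleaves beta-carotene, at 66.7 and 68.5, SV2B, a synaptic vesicle protein, at 69.8 and 61.5, and CCNA1, the germ-line cyclin A, at 69.4 and 60.1. These starts were named after their values were seen. None of the KO-only or WT-only promoters printed above was held by both WT anti-YTHDF1 lists, and TMC4 alone was held by both YTHDF1-KO anti-YTHDF1 lists.

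Promoter G+C was alike at the 1-condition starts. Median G+C of the 300 bases was 60.0% at KO-only, 59.3% at WT-only and 65.7% at kept starts, against 47.7% at starts with no peak and 62.7% over all 15812. The AP-1 motif TGANTCA, bound by FOS and JUN dimers, was in 1.72% of KO-only promoters (3 of 174), 5.00% of WT-only promoters (8 of 160), 4.62% of kept ones and 5.76% of all. The TEAD motif GGAATG, searched on both strands, was in 11.5% of KO-only, 9.38% of WT-only and 11.7% of all promoters. The forkhead motif TGTTTAC, on both strands, was in 2.87%, 5.00% and 2.62%. CCAAT, on both strands, was in 28.7% of KO-only, 32.5% of WT-only and 36.3% of all promoters, and the E-box CACGTG in 8.05%, 7.50% and 8.87%. No motif is contained in another, and the counts behind the 1-condition shares are small.

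The strongest 1-condition regions were ranked by the lower percentile of the lists that held them. The 10 strongest KO-only regions outside the 3 chromosomes had lower percentiles of 73.3 to 79.1. One lay 1021 kb from NR2F1, an orphan nuclear receptor gene, at percentiles 80.7 and 79.1. One lay inside IQSEC1, an exchange factor for ARF GTPases, at 79.8 and 76.5. One lay inside CDH23, a cadherin of hair-cell tip links, at 74.8 and 76.3, and 1 inside TRAPPC9, a subunit of the TRAPP trafficking complex, at 73.5 and 76.2. One lay 0.881 kb from ZNF473, a zinc-finger gene, at 75.4 and 74.2. When peaks up to 1000 bp apart were joined, the IQSEC1, CDH23, TRAPPC9 and ZNF473 regions were no longer KO-only, and that near NR2F1 still was. Their heights were 5 to 16 steps. On chromosome 17, a region inside ERN1, which encodes the unfolded-protein sensor IRE1 alpha, was at 77.1 and 75.0, and 1 inside EFTUD2, a spliceosomal GTPase gene, at 74.5 and 76.0. With that joining the ERN1 region was still KO-only and the EFTUD2 region was not.

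The 10 strongest WT-only regions outside those chromosomes had lower percentiles of 73.8 to 83.1. Their heights, not adjusted for the lower listed signal of the YTHDF1-KO lists, were 10 to 35 steps. One lay inside SLC22A23, a gene of the organic ion transporter family, at 83.4 and 83.1. One overlapped an end of ARL2BP, a binding partner of the GTPase ARL2, at 81.8 and 80.3. One lay inside CDH17, the liver-intestine cadherin gene, at 73.8 and 77.0. On chromosome 9, a region inside DENND1A, an exchange factor for RAB35, was at 86.5 and 83.9, and 1 over NANS, the sialic acid synthase gene, at 85.0 and 79.8. On chromosome 2, a region inside IL1R2, the decoy receptor of interleukin-1, was at 79.3 and 86.7. With peaks up to 1000 bp apart joined, the regions at CDH17 and DENND1A were still WT-only, and those at SLC22A23, ARL2BP, NANS and IL1R2 were not. None of the 20 regions of these 2 rankings reached the 90th percentile in both lists that held it.

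Genes with the most 1-condition regions were long genes or genes on the shifted chromosomes. RBFOX3, the neuronal splicing factor gene, overlapped 13 KO-only regions and 1 WT-only region, PRKCA, a protein kinase C gene, 11 and 0, and RPTOR, the raptor subunit of mTORC1, 10 and 1. All 3 lie on chromosome 17. Outside chromosomes 2, 9 and 17, TRAPPC9 overlapped 10 KO-only and 3 WT-only regions and ZNF536, a zinc-finger gene of chromosome 19, 10 and 0. SPTBN1, a beta-spectrin gene on chromosome 2, overlapped 0 KO-only and 8 WT-only regions, and COL22A1, a collagen gene on chromosome 8, overlapped 2 and 8. PDE4D, a cAMP phosphodiesterase gene of 1553 kb, was among the first 5 of both classes, with 7 KO-only and 5 WT-only regions.

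The gene lists were described by their starts. Of the 24 BAF, PBAF and ncBAF subunit genes with a start, 20 were kept, none was KO-only or WT-only, 3 were mixed and 1 held no peak. Of 18 genes of the m6A machinery, 17 were kept. Of 17 AP-1 and ATF factor genes, 16 were kept. Of 25 R-loop processing genes, 21 were kept and DDX39B, an RNA helicase gene of mRNA export, was KO-only at percentiles 17.8 and 26.9. Of 19 interferon-stimulated genes, 12 were kept and none was in a 1-condition class. Of 14 antigen presentation genes, 4 were kept and 7 held no peak. Of 22 cytokine and chemokine genes, 11 were kept and IL1A, which encodes interleukin-1 alpha, was WT-only at 15.0 and 38.2, on chromosome 2. Of 14 neuronal marker genes, 4 were kept, NEUROG2 and BDNF were KO-only and NEUROD1 was WT-only. The BDNF start was at percentiles 90.0 and 91.8, from peaks whose merged region was kept, and the NEUROG2 start at 4.50 and 11.2 in YTHDF1-KO cells, and NEUROD1, on chromosome 2, was at 45.5 and 20.5 in WT cells. Of the EMT genes 9 of 12 were kept, of the YAP and TEAD pathway 11 of 15, of the lung and endoderm factors 10 of 13, of the nucleic acid sensing genes 8 of 13, of the checkpoint ligands 11 of 14, of the NRF2 targets 16 of 18, of the p53 targets 15 of 16 and of the haematopoietic markers 4 of 8. SPARC was the only 1-condition start among these lists. These shares stand beside 62.4% kept, 1.10% KO-only and 1.01% WT-only over all starts.

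At the far end of the gene, 211 of the 15812 protein-coding genes (1.33%) were KO-only and 183 (1.16%) WT-only. Of the list genes, 3 were KO-only and 4 WT-only there. ALKBH5, an m6A demethylase gene on chromosome 17, was KO-only at its end at percentiles 76.0 and 85.0, CEACAM1, a checkpoint ligand gene, at 26.2 and 45.7, and IL6, the interleukin-6 gene, at 40.3 and 20.5. BCL7A, a BAF subunit gene, was WT-only at its end at 80.2 and 75.5, and BRD7, a PBAF subunit gene, at 56.4 and 12.9. On chromosome 2, NFE2L2 was WT-only at its end at 25.6 and 37.7 and CD8A, a T cell co-receptor gene, at 34.6 and 32.2. The starts of ALKBH5, CEACAM1, IL6, BCL7A, NFE2L2 and CD8A were kept, and that of BRD7 held no peak.

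The 8 further lists that the rule did not use held the classes unevenly. The siARID1A anti-ARID1A lists held 69.9% and 76.4% of kept, 13.4% and 18.2% of KO-only and 14.1% and 18.6% of WT-only regions. The YTHDF1-KO anti-YTHDF1 lists held 41.6% and 40.2% of kept, 11.6% and 11.4% of KO-only and 7.60% and 6.78% of WT-only regions. What that antibody marks in YTHDF1-KO cells was not tested. The siARID1A anti-YTHDF1 lists held 18670 and 19089 of the 37331 kept regions, 12.3% and 12.5% of KO-only and 10.1% and 9.33% of WT-only regions. The WT anti-YTHDF1 lists held 52.5% and 38.1% of kept, 12.8% and 6.74% of KO-only and 11.0% and 6.92% of WT-only regions. In the siARID1A lists the KO-only and WT-only shares with anti-ARID1A overlapped. In the YTHDF1-KO anti-YTHDF1 lists the KO-only share was above the WT-only share by 4.31 ± 0.438 percentage points (SD, n = 2), and in the WT anti-YTHDF1 lists by 0.810 ± 1.40 (SD, n = 2). Without chromosomes 2, 9 and 17 the first difference was 3.09 and the second 1.54 points. Both siARID1A anti-YTHDF1 lists also held a larger share of KO-only than of WT-only regions. Without those chromosomes they held 11.4% and 11.6% of KO-only regions, against 8.84% of WT-only regions in each list. The higher KO-only share was therefore not particular to YTHDF1-KO cells. Among regions of 1500 to 2500 bp, the YTHDF1-KO anti-YTHDF1 lists held 17.5% and 16.5% of kept, 10.5% and 10.8% of KO-only and 7.08% and 6.67% of WT-only regions.

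**Figure D4:**
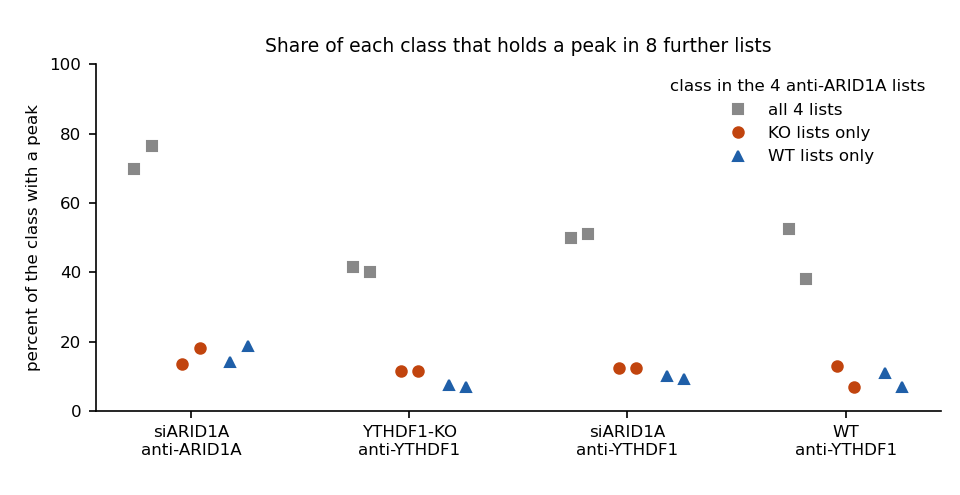
Percent of kept, KO-only and WT-only regions that held a peak in each of 8 lists outside the rule (points, 2 lists per group). Kept regions were held by 38.1% to 76.4%, and KO-only and WT-only regions by 6.74% to 18.6%.

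Within kept regions the percentiles were compared list by list. The highest percentile of a region was above both WT lists in both YTHDF1-KO lists for 8600 (23.0%) of 37331 kept regions and below both for 7593 (20.3%). Without chromosomes 2, 9 and 17, 7213 (23.6%) of 30512 were higher and 5219 (17.1%) lower. A random order of 2 lists against 2 also separates the groups, in 1 direction or the other, with probability 0.33. These are therefore not counts of changed regions. A gap of more than 20 percentile points, a limit set after the values were seen, was found in 839 regions on the higher side and 858 on the lower side, of which 671 and 533 lay outside the 3 chromosomes. The largest gap on the higher side lay inside PLCG1, which encodes phospholipase C gamma 1, at 89.0 and 85.0 in YTHDF1-KO cells and 7.17 and 14.4 in WT cells. A region 29.2 kb from ERC1, an active-zone scaffold gene, was at 78.8 and 85.7 in YTHDF1-KO cells and 3.60 and 9.63 in WT cells. On the lower side, a region inside FAM120A on chromosome 9 was at 6.08 and 2.17 in YTHDF1-KO cells and 82.5 and 88.0 in WT cells. A region 1.04 kb from EMP1, an epithelial membrane protein gene on chromosome 12, was at 18.1 and 13.2 in YTHDF1-KO cells and 81.9 and 82.6 in WT cells.

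The summed signal of the kept regions was then fitted with limma over all 37331, a step added after the data were seen. Signal was log2-transformed and centred on each list's median kept region. At a Benjamini-Hochberg adjusted p under 0.05, 434 regions (1.16%) were higher and 706 (1.89%) lower in YTHDF1-KO cells. Of these, 241 of the higher regions lay on chromosome 17, and 243 and 163 of the lower ones on chromosomes 2 and 9. Outside them 188 of 30512 (0.616%) were higher and 285 (0.934%) lower, and a fit made without these chromosomes called 55 higher and 184 lower. The calls rest on sharing the spread between regions of like signal: without that mean-variance trend limma called 0 regions in either direction, with 5154 (13.8%) at an unadjusted p under 0.05. With the mean signal per covered base in place of the sum, limma also called 0, with 3919 (10.5%) at an unadjusted p under 0.05. The called regions are described here by their values.

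Summed signal combines how much of a region was called and how high. Over the 434 higher regions the median log2 difference was 0.76 for the sum, 0.28 for covered length and 0.32 for mean signal. Over the 706 lower regions it was -0.96, -0.53 and -0.47. A region 12.76 kb from CAV1, which encodes the caveolae protein caveolin-1, had centred log2 sums of 1.92 and 1.89 in YTHDF1-KO cells and -0.55 and -0.21 in WT cells. Its log2 difference was 2.28 ± 0.27 (SE; limma adjusted p = 0.00105), and its peaks covered 8.34 and 8.10 kb in YTHDF1-KO lists and 1.71 and 3.42 kb in WT lists, with a log2 difference in mean signal of 0.42. The PLCG1 region had sums of 0.82 and 0.84 in YTHDF1-KO cells and -1.94 and -1.99 in WT cells, a log2 difference of 2.80 ± 0.44 (SE; limma adjusted p = 0.00601). Its covered length was 6.92 and 6.06 kb in YTHDF1-KO lists and 1.09 and 1.15 kb in WT lists, and its mean signal differed by 0.17, so the gap lay in what was called. A region 133.29 kb from the nearest end of RAD51B, a homologous recombination gene, had 2.12 and 2.17 in YTHDF1-KO cells and 0.93 and 0.59 in WT cells, a difference of 1.38 ± 0.21 (SE; limma adjusted p = 0.00406), with 3.37 and 3.51 kb covered in YTHDF1-KO lists, 3.39 and 3.12 kb in WT lists and a mean signal difference of 1.21.

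Among the regions with the smallest p on the lower side, 4 are described, chosen after their values were seen. LAD1, the gene of the basement membrane protein ladinin-1, had centred sums of 2.83 and 2.92 in YTHDF1-KO cells and 3.87 and 3.79 in WT cells, a log2 difference of -0.95 ± 0.10 (SE; limma adjusted p = 0.000528). Peaks covered 16.61 and 19.18 kb in YTHDF1-KO lists and 21.53 and 22.75 kb in WT lists, and mean signal differed by -0.74. The region over NFKBIA, which encodes the NF-kappa-B inhibitor, had 3.03 and 2.90 in YTHDF1-KO cells and 3.79 and 3.74 in WT cells, a difference of -0.80 ± 0.10 (SE; limma adjusted p = 0.00144). It was covered over 14.52 and 13.55 kb in YTHDF1-KO lists and 24.14 and 22.77 kb in WT lists, with a mean signal difference of -0.15. A region 10.93 kb from ELF3, an epithelial ETS factor gene whose own start region was not called (-0.20 ± 0.08, SE; limma adjusted p = 0.224), had 4.55 and 4.60 in YTHDF1-KO cells and 5.17 and 5.05 in WT cells, a difference of -0.54 ± 0.07 (SE; limma adjusted p = 0.00157), with 35.88 and 35.50 kb covered in YTHDF1-KO lists, 37.10 and 36.64 kb in WT lists and a mean signal difference of -0.59. The region over TGM3, an epidermal transglutaminase gene, had 1.58 and 1.15 in YTHDF1-KO cells and 2.89 and 2.82 in WT cells, a difference of -1.49 ± 0.17 (SE; limma adjusted p = 0.000952), with 9.90 and 6.60 kb covered in YTHDF1-KO lists, 17.83 and 19.95 kb in WT lists and a mean signal difference of -0.37.

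**Figure D5:**
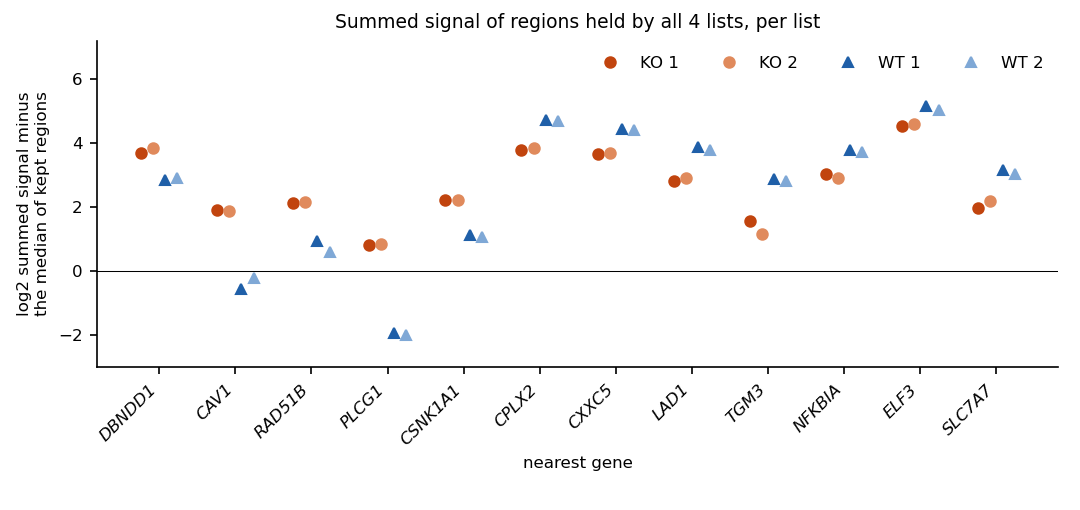
Log2 summed signal of 12 kept regions, minus each list's median kept region, in 2 YTHDF1-KO lists (circles) and 2 WT lists (triangles), by nearest gene and from among the smallest limma p-values in each direction outside chromosomes 2, 9 and 17. The first 5 regions are higher in both YTHDF1-KO lists and the other 7 lower, which the choice by p-value fixes.

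The strongest kept regions were not all at ordinary genes. The highest, at chr1:628618-635097, reached 4669 and 4452 steps in YTHDF1-KO cells and 4021 and 4741 in WT cells. This stretch of the genome carries a nuclear copy of mitochondrial sequence, so its reads cannot be told apart from mitochondrial ones. Its summed signal was 0.36 ± 0.03 higher on the log2 scale in YTHDF1-KO cells (SE; limma adjusted p = 9.57e-05), beside the mitochondrial shares of 22.6% and 23.0% in YTHDF1-KO cells and 19.3% and 18.1% in WT cells; their part in it was not tested. Others were wide runs of merged peaks over gene-dense parts of chromosome 19, such as the 85110 bp over PAF1 and its neighbours, with 187 and 168 steps in YTHDF1-KO cells and 244 and 261 in WT cells.

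Of the list genes with a start in the promoter table, which lacks chromosome 8, few lay in a called region. Of 10045 protein-coding starts inside kept regions, 243 (2.42%) were in a higher region and 221 (2.20%) in a lower one, with a median log2 difference of 0.06. Of 20 BAF-family starts there was 1, SMARCD2, a core BAF subunit gene on chromosome 17, with centred sums of 3.81 and 3.84 in YTHDF1-KO cells and 3.20 and 3.08 in WT cells. It differed by 0.68 ± 0.10 (SE; limma adjusted p = 0.00286), covered 22.99 and 22.05 kb in YTHDF1-KO lists and 19.18 and 20.08 kb in WT lists, and had a mean signal difference of 0.39. Of 17 NRF2 target starts there was also 1, NFE2L2, the gene of NRF2 itself on chromosome 2, with sums of 0.50 and 0.83 in YTHDF1-KO cells and 1.85 and 1.61 in WT cells, a difference of -1.07 ± 0.23 (SE; limma adjusted p = 0.0282), with 2.55 and 2.39 kb covered in YTHDF1-KO lists, 6.44 and 6.77 kb in WT lists and a mean signal difference of 0.26. Of 15 p53 target starts, FDXR, the ferredoxin reductase gene on chromosome 17, was in a higher region (0.63 ± 0.07, SE) and TP53I3, a quinone oxidoreductase gene on chromosome 2, in a lower one (-0.45 ± 0.10, SE). MAFG, a small Maf gene on chromosome 17, was the only call of the 16 AP-1 and ATF factor starts (0.42 ± 0.09, SE), and ID2, an inhibitor of basic helix-loop-helix factors on chromosome 2, that of the 10 lung and endoderm factor starts (-0.62 ± 0.15, SE). TGFB1, the TGF-beta ligand gene on chromosome 19 and the only call of 9 EMT starts, was the only called list gene outside chromosomes 2, 9 and 17, in a region of 162485 bp with sums of 6.68 and 6.61 in YTHDF1-KO cells and 6.39 and 6.41 in WT cells, a difference of 0.24 ± 0.05 (SE; limma adjusted p = 0.0148). Its region was covered over 152.38 and 140.78 kb in YTHDF1-KO lists and 139.99 and 154.23 kb in WT lists, and mean signal differed by 0.15. No start of the R-loop, nucleic acid sensing, interferon-stimulated, antigen presentation, checkpoint ligand, cytokine, m6A, YAP and TEAD, haematopoietic or neuronal lists lay in a called region. Their medians ran from -0.02 for the neuronal markers to 0.23 for the interferon-stimulated genes. The YTHDF1 start region differed by 0.14 ± 0.09 (SE; limma adjusted p = 0.477) and the ARID1A start region by 0.34 ± 0.26 (SE; limma adjusted p = 0.569).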

How the data were processed

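The authors deposited 1 peak list per library, with a total and a highest signal per peak. Per the submitters' processing notes the build was hg38 (GRCh38), and the tools named, without role or order, were SEACR 1.3, deepTools 3.5.2, bedtools 2.30.0, SAMtools 1.9, fastp 0.23.2 and Bowtie2 2.4.2. Neither labels nor headers give the peak threshold. In the deposited lists each signal is a whole multiple of 1 step per list, to a tolerance of 0.01 step, so the values had been scaled by library and are not counts. Peak number did not follow listed signal over the 4 lists. YTHDF1-KO replicate 2 had the least signal, summed in steps, and the most peaks, at 106882. Both YTHDF1-KO lists held less signal than either WT list. Whether library strength moved regions between classes was not tested.

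Peaks were merged and classed in Python 3.11.15 with numpy 2.4.6 and pandas 2.3.3, and checked on simulated lists. A peak's percentile is its rank by total signal within its list. Genes and promoters are from RefSeq (GRCh38.p14): all 19974 protein-coding genes for distances, to either annotated end because the gene table gives no strand, and the 15812 in the promoter table for starts. The promoter table holds no gene of chromosome 8, so no start there was counted. The fit of kept regions used limma 3.58.1 in R 4.3.3 with a mean-variance trend and Benjamini-Hochberg adjustment. It was also run on simulated data whose spread followed such a trend, so that run cannot test the trend itself.

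Named regions are the 10 strongest of each class outside chromosomes 2, 9 and 17 and 4 on them, the 5 genes with most regions, and list genes called in 1 class; examples from these and from the fit are given. The members and the 16 gene lists were chosen with earlier results of these data known. A p-value here measures the spread between lists only.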

Additional observations from a re-analysis of the deposited data

Results flagged for a closer look

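On 3 chromosomes the share of listed signal moved one way with anti-ARID1A and the other way with anti-YTHDF1, with no overlap between YTHDF1-KO and WT lists for either antibody; the difference between the antibodies was not tested. On chromosome 6 the log2 difference of YTHDF1-KO over WT was -0.06 with anti-ARID1A (1.88% and 1.95% in YTHDF1-KO cells, 2.04% and 1.97% in WT cells) and 0.16 with anti-YTHDF1. On chromosome 14 it was 0.04 with anti-ARID1A (2.91% and 2.95% in YTHDF1-KO cells, 2.86% and 2.84% in WT cells) and -0.06 with anti-YTHDF1. On chromosome 16 it was 0.03 with anti-ARID1A (5.33% and 5.30% in YTHDF1-KO cells, 5.15% and 5.28% in WT cells) and -0.13 with anti-YTHDF1. Shares of a list add up to a fixed whole, so the shifts on chromosomes 2, 9 and 17 also move the shares of all others. Outside those chromosomes the anti-ARID1A differences ran from -0.10 on chromosome 18 to 0.11 on chromosome 4. The values of chromosomes 6, 14 and 16 lie within that range. Lack of overlap was also common. With anti-ARID1A the groups overlapped only on chromosomes 8, 10, 13, 21 and 22. With anti-YTHDF1 they overlapped only on chromosomes 1, 4, 5, 10 to 13, 18 to 20 and 22.

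The mitochondrial chromosome, which enters no comparison, took 22.6% and 23.0% of the listed anti-ARID1A signal in YTHDF1-KO cells, above the 19.3% and 18.1% in WT cells. In the anti-YTHDF1 lists the groups overlapped, with 29.1% and 27.6% in YTHDF1-KO cells and 27.8% and 38.5% in WT cells. In the siARID1A anti-ARID1A lists it took 49.5% and 44.9%.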

How the results depend on the processing

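The numbers of 1-condition regions depend on the rule. Kept regions numbered 17725 when each list had to cover at least 50% of the region and 22523 in the upper 50% of each list, where 2211 regions were KO-only and 2566 WT-only. With the upper 50% required in the lists that hold a region and no peak in the others, 339 were KO-only and 505 WT-only. Leaving out 1 list at a time gave 42980 to 44383 kept, 7874 to 25406 KO-only and 10096 to 23386 WT-only regions, and 387 to 474 KO-only and 313 to 487 WT-only starts; fewer lists make both classes easier to enter. Without the 10 Mb bins that shift in the anti-YTHDF1 lists, 3379 regions were KO-only and 3229 WT-only, the reverse of their order over all bins, and with lists of equal length 3658 were KO-only and 5686 WT-only. With all annotated genes, 290 starts were KO-only and 320 WT-only. Joining peaks up to 1000 bp apart, 7 of the 14 named KO-only and 9 of the 14 named WT-only regions kept their class.

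The covered-length ratio of YTHDF1-KO over WT was 0.961, and 0.891 to 1.04 with 1 list left out, above 1 without WT replicate 2. Median percentiles by highest signal were 66.6 (YTHDF1-KO) and 65.4 (WT) in kept regions and 29.4 in KO-only ones; without chromosomes 2, 9 and 17 the YTHDF1-KO kept median was 69.2. The KO-only minus WT-only share held by YTHDF1-KO anti-YTHDF1 lists was 3.09 points without those chromosomes and 2.22 with 50% covered.

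The limma counts moved most. They were 0 higher and 0 lower without the mean-variance trend or on mean signal, 1 and 0 on covered length, 55 and 184 in a fit without chromosomes 2, 9 and 17, and 108 to 267 and 105 to 788 with 1 list left out. The replicate numbers did not pair the lists (correlation of deviations -0.02 over 37331 kept regions). With the replicate block limma called 816 higher and 1280 lower. Pairing lists by replicate number left the covered-length ratio at 0.964 and the peak number ratio at 1.07. For the latter the exact sign-flip permutation p was 0.50, the smallest that 2 pairs allow.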
